A study of Mus musculus with 23 samples.

Results

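Astrocyte transcripts were followed in the mouse nucleus accumbens through 8 genes that mark or equip these cells: Aldoc, Aqp4, Clu, Gfap, Gja1, Glul, S100b and Slc1a2. The members were all probe sets that the array's annotation maps to these genes, which gave 13 of the 12422 probe sets that are not controls, for 8 of 8251 genes. The samples were 23 pools of accumbens tissue, described in the labels as 4-way pools, each labelled as biotinylated cRNA and hybridised to 1 array. The mice came from short-term selected lines derived from C57BL/6J x DBA/2J stock and bred for a high (HMACT) or a low (LMACT) acute response to methamphetamine. Each pool had received a challenge injection of saline (0 mg/kg) or of 2 mg/kg methamphetamine, and tissue was taken 1 h later. There were 6 HMACT pools after saline, 6 HMACT pools after methamphetamine, 6 LMACT pools after saline and 5 LMACT pools after methamphetamine. The mean age of a pool ran from 77.25 to 154 days in HMACT and from 60 to 127.5 days in LMACT. Pools over 100 days, called older here, numbered 6 of 12 in HMACT and 2 of 11 in LMACT, so age and line are partly confounded. The labels do not say how animals were shared among pools, and a p-value here speaks only of the variation from pool to pool.

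Astrocytes clear glutamate and potassium from the space around synapses, are joined to each other by gap junctions, and wrap blood vessels with end feet. When they become reactive they thicken their intermediate filaments. Among the genes followed, Slc1a2 encodes the main glutamate transporter of the forebrain, GLT-1, and Glul encodes glutamine synthetase, which turns the captured glutamate into glutamine. Aldoc encodes the brain form of the glycolytic enzyme aldolase. Gja1 encodes Cx43, the main gap junction protein of astrocytes, and Aqp4 encodes the water channel of their end feet. Gfap encodes the intermediate filament protein used as the usual sign of reactivity, S100b a calcium-binding protein that is also released, and Clu the secreted chaperone clusterin. In the striatum these cells respond to dopamine and glutamate release, which methamphetamine raises.

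In short, methamphetamine gave no difference past the threshold in any member at 1 h, and neither did line nor age. The values closest to the threshold belonged to Gja1, which had lower values in HMACT than in LMACT, and S100b, which had higher ones. In HMACT the mean of Gja1 was lower, and the means of S100b and Gfap higher, in older than in younger pools, with overlapping ranges and again without passing the threshold. Values of Gja1, S100b, Gfap, Clu, Aldoc and Aqp4 also differed along 1 axis of variation between arrays within the groups, whose scores differ between lines and ages too.

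The promoters of the 3 genes on which the line and age comparisons turn are shown as the 120 bases before the annotated start, from RefSeq, assembly GRCm38.p6, written 5′ to 3′ on the gene's strand. Capitals mark a match, on either strand, to 1 of 7 motifs searched. For promoter elements these were the letters TATAAA of the core element, the letters CCAAT bound by NF-Y, and for Sp1 the letters CCGCCC. For regulated factors they were the palindromic NFI site, for STAT factors the letters TTCNNNGAA, for the E-box the letters CACGTG and for AP-1 the letters TGAGTCA. Matches of the NFI and NF-Y motifs can overlap.
Gja1, chr10:56377180-56377299, plus strand: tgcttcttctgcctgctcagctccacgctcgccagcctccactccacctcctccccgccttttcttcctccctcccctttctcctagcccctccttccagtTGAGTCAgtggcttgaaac
S100b, chr10:76253716-76253835, plus strand: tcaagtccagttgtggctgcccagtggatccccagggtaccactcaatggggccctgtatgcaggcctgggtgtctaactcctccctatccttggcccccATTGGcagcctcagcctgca
Gfap, chr11:102897201-102897320, minus strand: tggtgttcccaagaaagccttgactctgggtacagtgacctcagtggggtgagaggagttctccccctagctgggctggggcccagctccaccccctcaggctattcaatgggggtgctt

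The Gja1 window holds the AP-1 letters close to the start, as do 2.3% of 32851 promoter windows of the same length. The S100b window holds the NF-Y letters on the opposite strand, as do 21.3% of windows. The Gfap window holds none of the 7 motifs. Shares for the other motifs were 6.34% for the core element, 0.0244% for NFI, 3.15% for STAT, 26.5% for Sp1 and 3.66% for the E-box. A match is a description of letters, not of a bound site. Of the 8 genes 6 were matched to promoters; Aqp4 and Clu are named only.

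Values are on a log2 scale, which was inferred from their range of 2.23 to 16.4. Values up to 2.3 were taken as the floor of the measurement, at which 44.2% of all values lay. Of the 13 member probe sets, 11 were above the floor on all 23 arrays. The second Gfap probe set (94143_at) was above it on 2 arrays, HMACT after saline replicate 3 (2.89) and HMACT after methamphetamine replicate 1 (2.33). The second Glul probe set (161826_r_at) was above it on 2 arrays, LMACT after saline replicate 4 (2.67) and LMACT after methamphetamine replicate 5 (2.55). These 2 probe sets carry no level for most pools and are counted but not described further. Where a gene had several probe sets, the first named below has the highest mean. In Affymetrix naming an f or s in the suffix marks probes shared with related sequences and an r relaxed design rules, so Gja1 (100064_f_at, 100065_r_at), the second Aqp4 (102703_s_at) and the second Clu (161294_f_at) sets may also read other transcripts.

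The tissue label was checked against marker lists. Of 6 striatal projection neuron genes on the array 5 were above the floor, with mean levels of 14.28 for Penk (enkephalin), 9.91 for Tac1 (substance P) and 5.96 for Drd2 (the D2 dopamine receptor), and Rgs9 lay at the floor on every array. Of 5 choroid plexus and ependymal genes on the array 3 were above the floor (Folr1, Aqp1 and Foxj1), while Ttr, the defining transcript of choroid plexus, lay at it on every array. Because whole tissue was measured, fewer astrocytes and less RNA per astrocyte cannot be told apart in any value below. A first principal component of the deviations from the group means, over 5222 genes that belong to no list used here, carried 62.2% of that variation. Each array was scored on it by its values centred on the mean of all arrays, so the scores also hold differences between groups. Past a limit of 27.68, set from the median and spread of the scores, 4 arrays stood apart. Their scores were 41.66 to 64.14 against -22.64 to 23.52 for the 19 others. They were HMACT after saline replicates 3 and 5, HMACT after methamphetamine replicate 3 and LMACT after methamphetamine replicate 4. The values of Gja1, S100b, Gfap and Aldoc that rest on them are given with and without them.

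Of the enzymes, Aldoc (160546_at) ran in HMACT after saline from 11.72 through a median of 12.51 to 13.36, and in HMACT after methamphetamine from 11.80 through 12.31 to 12.71. In LMACT it ran after saline from 12.08 through 12.40 to 12.57, and the 5 pools after methamphetamine, replicates 2 to 6, had 13.47, 12.46, 13.18, 12.17 and 12.98. Of the 5 LMACT pools after methamphetamine, 3 lay above every LMACT saline pool, among them replicate 4, an array that stood apart. In HMACT, saline replicates 3 (13.36) and 5 (13.18), both arrays that stood apart, lay above every methamphetamine pool. HMACT saline replicate 6 (11.72) lay below every HMACT methamphetamine pool. Glul (94852_at) ran from 9.61 through 9.996 to 10.30 and from 9.55 through 9.91 to 10.36 in HMACT after saline and methamphetamine. In LMACT it ran after saline from 9.59 through 9.81 to 10.32, with 9.69, 10.49, 10.30, 9.58 and 10.14 after methamphetamine. The ranges of the 4 groups overlapped for glutamine synthetase.

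The glutamate transporter Slc1a2 (96202_at) hardly varied. It ran from 5.93 through 6.12 to 6.34 in HMACT after saline, from 6.11 through 6.12 to 6.13 in HMACT after methamphetamine and from 6.05 through 6.13 to 6.42 in LMACT after saline. The LMACT pools after methamphetamine had 6.57, 5.74, 6.12, 6.12 and 6.10. On 14 of 23 arrays the value lay within 0.02 of its median of 6.12. Of the 6498 probe sets above the floor on every array, 20.9% had 12 or more arrays that close to their median, so this near-constancy is shared with many other probe sets. It limits what this probe set can show about GLT-1 transcripts.

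Of the channels, Gja1 (100064_f_at) ran from 10.98 through 12.08 to 12.47 in HMACT after saline and from 11.43 through 12.19 to 12.47 in HMACT after methamphetamine. It ran from 12.37 through 12.53 to 12.71 in LMACT after saline, with 12.42, 12.43, 11.92, 12.71 and 12.47 in LMACT after methamphetamine. The LMACT saline pools were the tightest group, with an SD of 0.113 (n = 6) against 0.548 (n = 6) in HMACT after saline, and all 6 HMACT saline pools lay below their mean. Aqp4 (102704_at) ran from 6.43 through 7.56 to 7.98 and from 7.01 through 7.49 to 8.09 in HMACT after saline and methamphetamine. In LMACT it ran after saline from 7.71 through 7.83 to 8.14, and the pools after methamphetamine had 7.88, 7.77, 7.25, 7.54 and 7.99. The highest pools were alike in all groups and the low values lay mostly in HMACT.

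The filament gene Gfap (94144_g_at) ran from 4.95 through 5.58 to 6.96 in HMACT after saline and from 5.18 through 5.66 to 6.95 in HMACT after methamphetamine. It ran from 4.77 through 5.23 to 5.62 in LMACT after saline, with 5.39, 5.54, 5.96, 4.81 and 4.40 after methamphetamine. Its 4 values above 6 were all in HMACT. S100b (101467_at) ran from 5.29 through 5.75 to 6.24 in HMACT after saline and from 5.18 through 5.43 to 5.85 in HMACT after methamphetamine. It ran from 5.03 through 5.20 to 5.37 in LMACT after saline, with 5.04, 5.16, 5.83, 4.69 and 5.53 after methamphetamine. All 6 HMACT saline pools lay above the LMACT saline mean, although the ranges overlapped. Clu (95286_at) ran from 10.71 through 11.56 to 13.05, from 11.04 through 11.27 to 11.68 and from 10.86 through 11.28 to 11.60 in HMACT after saline, HMACT after methamphetamine and LMACT after saline, with 11.39, 11.33, 12.21, 10.12 and 11.14 in LMACT after methamphetamine. Clusterin had the widest range of the 11 probe sets above the floor on every array, 2.92 log2 units, and both its highest pool and its highest LMACT pool were arrays that stood apart.

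**Figure D1:**
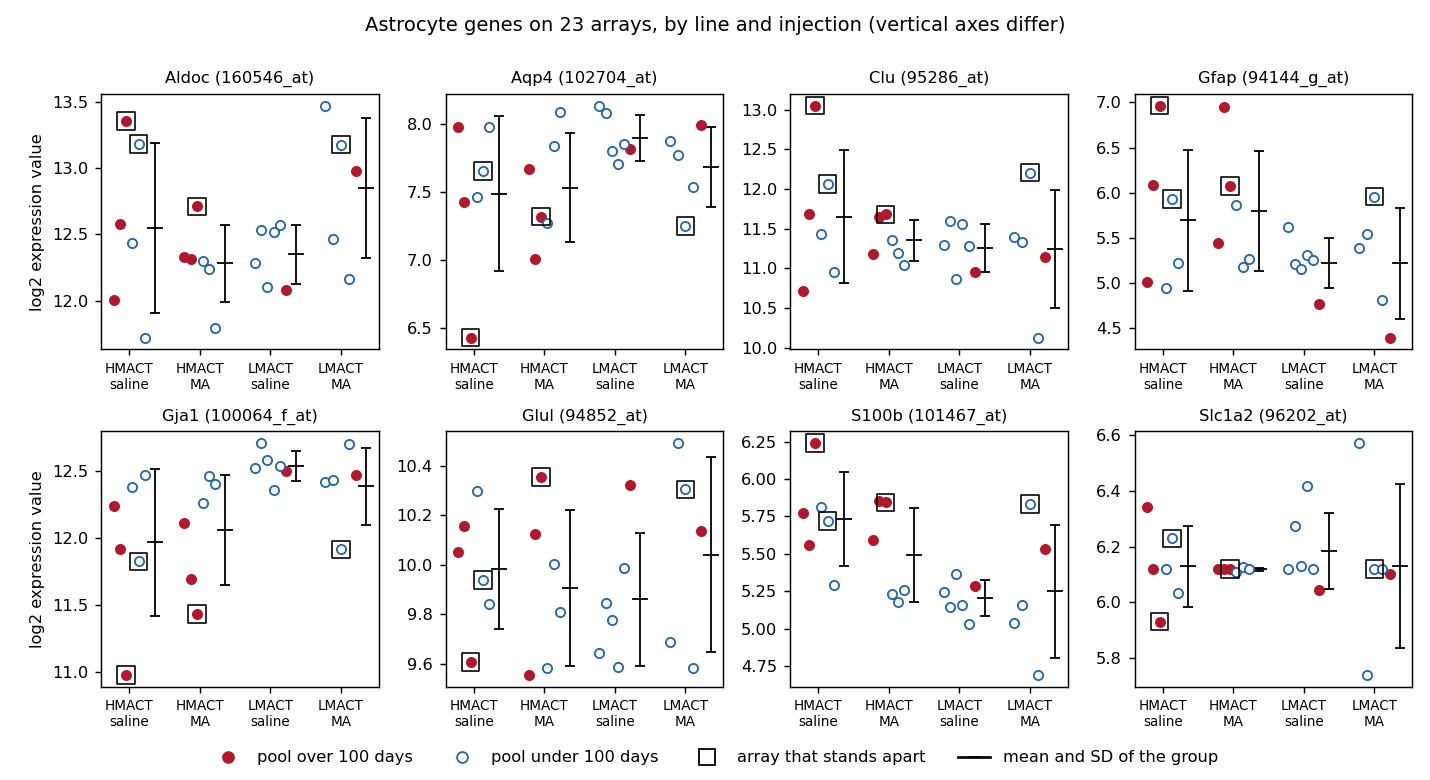
Log2 values (vertical axis, a different range in each panel) of the 8 genes, 1 probe set each, in the 4 groups (horizontal axis). Each circle is 1 pool, filled where its mean age was over 100 days and boxed where the array stood apart, and the bars give the group mean and SD (n = 6, 6, 6 and 5); the groups overlap in every panel, and the S100b values of LMACT after saline (5.03 to 5.37) sit low against those of HMACT after saline (5.29 to 6.24).

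The methamphetamine comparison asked whether astrocyte transcripts differed 1 h after the drug. Averaged over the lines, 0 of the 13 probe sets passed the adjusted threshold of 0.05 in limma's moderated test, against 0.0161% of all probe sets, and 0 had an unadjusted p under 0.05, against 1.25% of all. The differences of the first-named probe sets were 0.12 (SE 0.187) for Aldoc, 0.05 (SE 0.127) for Glul, -0.03 (SE 0.0705) for Slc1a2, -0.03 (SE 0.158) for Gja1, -0.08 (SE 0.163) for Aqp4, 0.05 (SE 0.255) for Gfap, -0.10 (SE 0.129) for S100b and -0.16 (SE 0.243) for Clu. Counting the 2 probe sets mostly at the floor, the 95% interval lay within 1 log2 unit on either side of 0 for all 13 probe sets. It lay within 1.5-fold for 12 of 13. For these genes a mean response beyond 2-fold therefore lay outside the interval at this number of arrays. Every adjusted p of a member was 1.

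Within the lines the intervals were wider. In HMACT 0 of 13 probe sets passed, against 0.00805% of all, and 0 had an unadjusted p under 0.05, against 1.45% of all. The difference in HMACT was -0.24 (SE 0.178) for S100b, -0.26 (SE 0.258) for Aldoc and 0.09 (SE 0.218) for Gja1. It was -0.30 for Clu, -0.08 for Glul, -0.01 for Slc1a2, 0.04 for Aqp4 and 0.10 for Gfap. In LMACT 0 of 13 passed, against 0% of all, and 0 had an unadjusted p under 0.05, against 2.98% of all. Aldoc had the largest difference there, 0.50 (SE 0.270, 1.42-fold, limma adjusted p = 1), with a 95% interval from -0.06 to 1.07 and 4 of 5 pools above the saline mean. That Aldoc difference was 0.42 without the arrays that stood apart, and ran from 0.35 without LMACT after methamphetamine replicate 2 to 0.67 without replicate 5. The other differences in LMACT were 0.18 for Glul, -0.06 for Slc1a2, -0.15 for Gja1, -0.21 for Aqp4, 0.05 for S100b and -0.02 for Clu, and Gfap had a mean of 5.22 after either injection. The interaction, the response in HMACT minus that in LMACT, was -0.76 (SE 0.373, limma adjusted p = 0.884) for Aldoc. It was -0.26 for Glul, 0.04 for Slc1a2, 0.24 for Gja1, 0.26 for Aqp4, 0.10 for Gfap, -0.29 for S100b and -0.28 for Clu. For the interaction 0 of 13 probe sets passed, against 0% of all, and 0 had an unadjusted p under 0.05, against 2.17% of all. The intervals of 3 of 13 interaction terms lay within 1.5-fold, so for the others a difference in response of that size lay inside the interval. Those 3 were the 2 probe sets mostly at the floor (94143_at and 161826_r_at) and the near-constant Slc1a2 probe set.

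**Figure D2:**
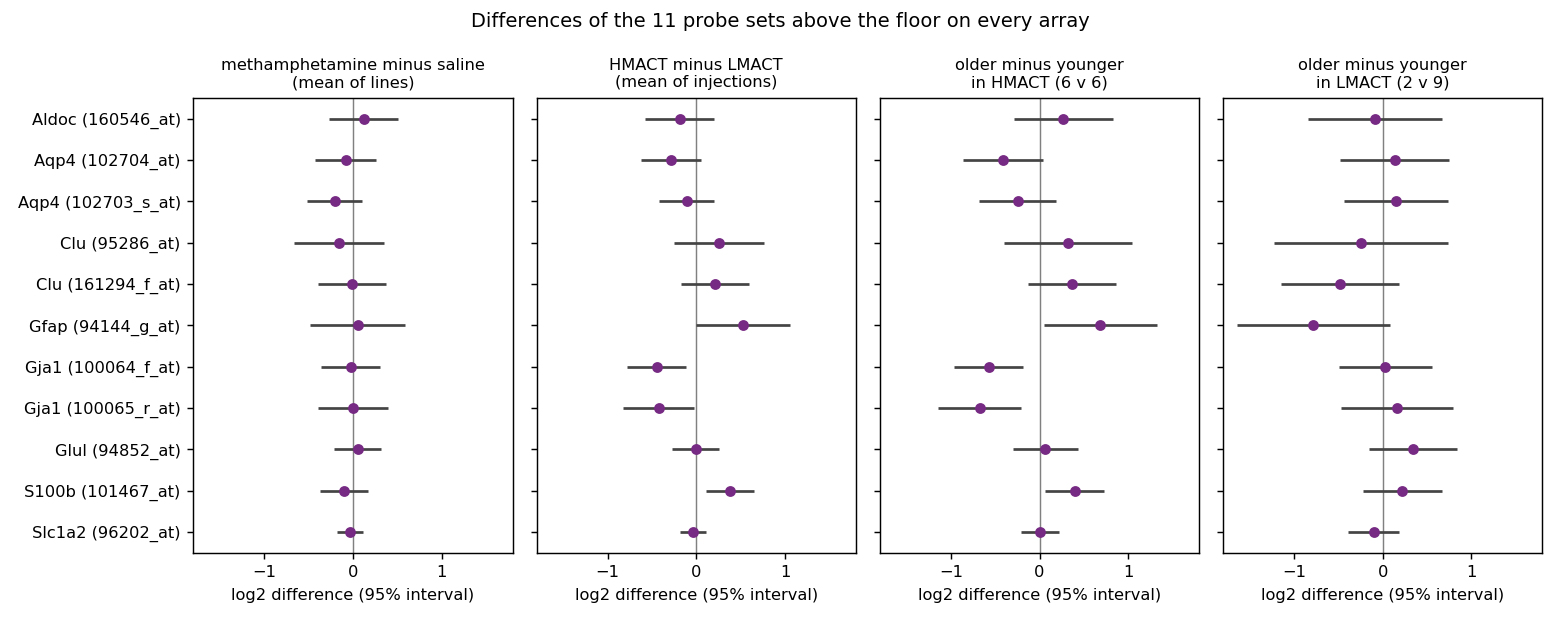
Log2 differences (horizontal axis, points) with 95% intervals from limma (lines) for the 11 probe sets above the floor on every array (vertical axis), for methamphetamine minus saline, HMACT minus LMACT, and older minus younger pools in HMACT and in LMACT, 1 panel each. No probe set passed the adjusted threshold in any panel; in the line panel the intervals of both Gja1 probe sets (-0.45 and -0.43) and of S100b (0.38) do not reach 0.

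The line comparison asked whether mice bred for a high or low response differ in these transcripts. Over the mean of both injections 0 of 13 probe sets passed the adjusted threshold, against 0.137% of all. At an unadjusted p under 0.05 there were 3 of 13 members, against 10.7% of all: both Gja1 probe sets and S100b. Gja1 (100064_f_at) ran from 10.98 through a median of 12.18 to 12.47 in the 12 HMACT pools and from 11.92 through 12.51 to 12.71 in the 11 LMACT pools. The difference was -0.45 (SE 0.158), which is 1.36-fold lower in HMACT (limma adjusted p = 0.352), and 10 of 12 HMACT pools lay below the LMACT mean of the same injection. Its second probe set gave -0.43 (SE 0.189, limma adjusted p = 0.436). Both probe sets of the connexin gene had lower means in HMACT, by a similar amount, without passing the threshold across the array. Their levels were far apart, with means of 12.23 and 5.42 over all arrays. The arrays that stood apart differed from the 19 others by -0.84 and -0.69 on these probe sets. The axis scores and the 3′ minus 5′ signal of control transcripts, a measure of how complete the labelled RNA was, also differed between lines. For saline and then methamphetamine pools, median scores were 11.26 and -4.39 in HMACT, against -22.2 and -16.15 in LMACT. The mean 3′ minus 5′ signal was 2.11 and 2.35 log2 units in HMACT against 2.63 and 2.87 in LMACT, and its part in the Gja1 difference was not tested. The LMACT mean after methamphetamine rests partly on 1 array at 4.57, whereas the highest value in any other group was 2.80. With the axis score as a covariate the Gja1 line difference was -0.18 (SE 0.0762), and -0.24 (SE 0.180) on the second probe set.

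S100b ran from 5.18 through 5.66 to 6.24 in HMACT and from 4.69 through 5.16 to 5.83 in LMACT. The difference was 0.38 (SE 0.129), 1.31-fold higher in HMACT (limma adjusted p = 0.319), with 10 of 12 HMACT pools above the LMACT mean of the same injection. Gfap ran from 4.95 through 5.66 to 6.96 in HMACT and from 4.40 through 5.26 to 5.96 in LMACT, a difference of 0.53 (SE 0.255, 1.44-fold, limma adjusted p = 0.47). The remaining members had differences of -0.28 (SE 0.163) for Aqp4, 0.25 (SE 0.243) for Clu, -0.19 (SE 0.187) for Aldoc, -0.03 (SE 0.0705) for Slc1a2 and -0.01 (SE 0.127) for Glul. The signs were thus mixed within the astrocyte genes: Gja1 and Aqp4 had lower means in HMACT and S100b, Gfap and Clu higher ones.

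After saline alone 0 of 13 probe sets passed, against 0.00805% of all, and 3 of 13 had an unadjusted p under 0.05, against 12.6% of all. Gja1 differed by -0.57 (SE 0.218, 1.48-fold, limma adjusted p = 0.39) and by -0.68 (SE 0.261) on its second probe set. S100b differed by 0.53 (SE 0.178, 1.44-fold, limma adjusted p = 0.39). Without the arrays that stood apart these values were -0.29 and -0.49 for Gja1 and 0.40 for S100b, and 1 of 13 probe sets had an unadjusted p under 0.05. Without HMACT after saline replicate 3 alone they were -0.37, -0.51 and 0.43. With the axis score as a covariate they were -0.13, -0.38 and 0.24, 0 of 13 had an unadjusted p under 0.05 and 5 of 13 differences had the opposite sign. The other saline differences were 0.48 for Gfap, -0.41 for Aqp4, 0.39 for Clu, 0.20 for Aldoc, 0.12 for Glul and -0.06 for Slc1a2. After methamphetamine 0 of 13 passed, against 0% of all, and 1 of 13 had an unadjusted p under 0.05, against 4.07% of all. That one was Aldoc, at -0.57 (SE 0.270, 1.48-fold, limma adjusted p = 1), whose 6 HMACT pools all lay below the LMACT mean; it was -0.57 without the arrays that stood apart and -0.25 in the largest chip lot. In the same comparison Gja1 differed by -0.33 (SE 0.228), and by -0.17 (SE 0.274) on its second probe set. S100b differed by 0.24 (SE 0.186), Gfap by 0.58, Aqp4 by -0.15, Clu by 0.11, Glul by -0.14 and Slc1a2 by -0.01.

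Because older pools were more frequent in HMACT, the line difference was also taken with age in the fit or in the younger pools alone. These settings do not fully separate line from age. Younger pools ran from 77.25 to 88 days in HMACT and from 60 to 72.75 days in LMACT. Older pools ran from 141.5 to 154 days and from 114.75 to 127.5 days. For Gja1 it was -0.33 (SE 0.152) with an older term, -0.21 (SE 0.167) with mean age as a covariate and -0.15 (SE 0.127) in the 15 pools under 100 days. S100b gave 0.28 (SE 0.119), 0.19 (SE 0.136) and 0.23 (SE 0.150) under the same settings. Gfap gave 0.47 (SE 0.275) and 0.40 (SE 0.310) with the covariates and 0.04 (SE 0.199) in the pools under 100 days. In those younger pools 0 of 13 member probe sets had an unadjusted p under 0.05. Without the arrays that stood apart the line difference was -0.30 (SE 0.0977) for Gja1, 0.36 (SE 0.115) for S100b and 0.40 (SE 0.242) for Gfap. With the axis score as a covariate S100b gave 0.21 (SE 0.0976) and Gfap 0.18 (SE 0.195). In the 15 arrays of the largest chip lot, which holds all 6 older HMACT pools, it was -0.63, 0.50 and 0.82. With array weights, which count noisier arrays less, Gja1 passed the threshold at -0.31 (SE 0.0868, limma adjusted p = 0.0343), in a fit in which 1014 probe sets passed. The Gja1 difference was smaller in every setting that took age into account than in the comparison of all pools. Both it and the S100b difference kept their sign in every refit of the mean line comparison. The second Gja1 probe set did so too, running from -0.55 to -0.06 over 37 refits.

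**Figure D3:**
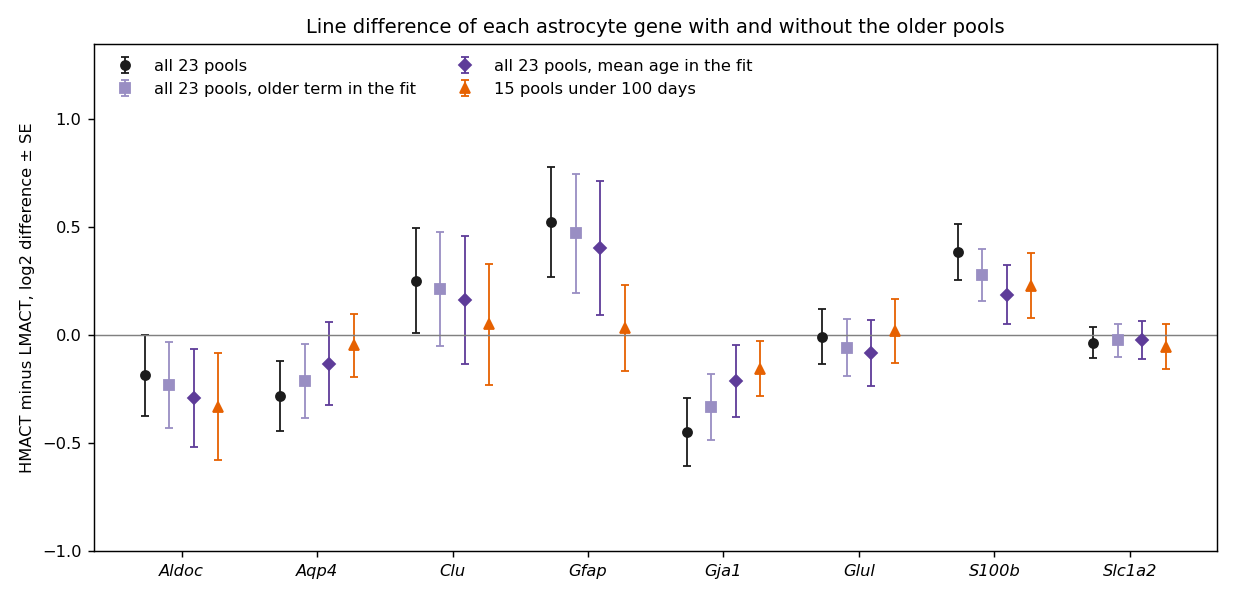
HMACT minus LMACT difference in log2 units (vertical axis, symbol and SE) of the 8 genes, 1 probe set each (horizontal axis), in all 23 pools, with an older term, with mean age in the fit, and in the 15 pools under 100 days. Gja1 goes from -0.45 in all pools to -0.15 in the younger pools and Gfap from 0.53 to 0.04, while S100b goes from 0.38 to 0.23.

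The age comparison set the older pools against the younger ones. Within all groups together 0 of 13 probe sets passed, against 0% of all, and 2 of 13 had an unadjusted p under 0.05, against 3.32% of all. These were Gja1, at -0.36 (SE 0.159, limma adjusted p = 0.937), and S100b, at 0.33 (SE 0.125, limma adjusted p = 0.937). The other differences were 0.14 for Aldoc, 0.16 for Glul, -0.03 for Slc1a2, -0.22 for Aqp4, 0.17 for Gfap and 0.12 for Clu. In HMACT, which has 6 older and 6 younger pools, 0 of 13 passed, against 0% of all, and 4 of 13 had an unadjusted p under 0.05, against 9.7% of all. All 6 older HMACT pools but 2 of the 6 younger ones were in the largest chip lot, so age and lot are partly confounded there. Gja1 ran from 10.98 through 11.81 to 12.24 in the older pools and from 11.83 through 12.39 to 12.47 in the younger ones. Its difference was -0.57 (SE 0.184, 1.49-fold, limma adjusted p = 0.496), and -0.67 (SE 0.222) on the second probe set. The older and younger ranges of Gja1 overlapped between 11.83 and 12.24.

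In the same HMACT pools S100b ran from 5.56 through 5.81 to 6.24 when older and from 5.18 through 5.28 to 5.81 when younger, a difference of 0.40 (SE 0.157, limma adjusted p = 0.496). Gfap ran from 5.02 through 6.08 to 6.96 and from 4.95 through 5.25 to 5.93, a difference of 0.69 (SE 0.302, 1.61-fold, limma adjusted p = 0.498). Of the older HMACT pools, 5 of 6 lay above the younger mean of their own group for S100b, and likewise for Gfap. Aqp4 differed by -0.41 (SE 0.215), Clu by 0.32 (SE 0.344) and Aldoc by 0.27 (SE 0.264), while Glul (0.06, SE 0.174) and Slc1a2 (0.00, SE 0.101) lay near 0. The older HMACT arrays also had higher scores on the axis between arrays, with a median of 21.56 against -14.57 in the younger ones. Without the arrays that stood apart the HMACT age difference was -0.42 (SE 0.0996) for Gja1, 0.32 (SE 0.136) for S100b, 0.63 (SE 0.295) for Gfap, -0.22 (SE 0.201) for Aqp4 and 0.12 (SE 0.277) for Clu, and 2 of 13 probe sets had an unadjusted p under 0.05. With the axis score as a covariate it was -0.24 (SE 0.0946), 0.16 (SE 0.124), 0.27 (SE 0.259), -0.11 (SE 0.180) and -0.20 (SE 0.264), the last with the opposite sign. Leaving out HMACT after saline replicate 3 alone gave -0.42 for Gja1, 0.33 for S100b, 0.48 for Gfap, -0.22 for Aqp4 and 0.04 for Clu. Over 37 refits, among them chip lot as a covariate and the largest lot alone, Gja1 ran from -0.71 to -0.24. S100b ran from 0.16 to 0.53 and Gfap from 0.27 to 0.91.

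The 2 older LMACT pools were 1 after saline (127.5 days) and 1 after methamphetamine (114.75 days). In LMACT 0 of 13 probe sets passed, against 0.169% of all, and 0 had an unadjusted p under 0.05, against 2.2% of all. Gfap read 4.77 and 4.40 in these pools and from 4.81 through 5.31 to 5.96 in the 9 younger ones, so the older pools were the lowest. The difference was -0.78 (SE 0.410, limma adjusted p = 1) with only 2 older pools. The other LMACT differences were 0.03 for Gja1, 0.22 for S100b, -0.24 for Clu, -0.09 for Aldoc, 0.34 for Glul, 0.13 for Aqp4 and -0.10 for Slc1a2. The age difference of Gfap in HMACT minus that in LMACT was 1.47 (SE 0.509, limma adjusted p = 0.804), a contrast added after the data had been seen. The same contrast was 0.56 (SE 0.579) for Clu and 0.85 (SE 0.395) on its second probe set. For Gja1 it was -0.60 (SE 0.310), and -0.83 (SE 0.374) on its second probe set. It was 0.17 (SE 0.265) for S100b, 0.35 for Aldoc, -0.54 for Aqp4, -0.28 for Glul and 0.11 for Slc1a2. None of them passed the threshold across the array.

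The axis between arrays was described through the members, with no test, since the arrays were singled out by their values. It was measured on genes of no list, so on none of the members. The 4 arrays that stood apart had a mean of 13.11 for Aldoc against 12.36 on the other 19, 12.25 against 11.20 for Clu, 6.23 against 5.34 for Gfap and 5.91 against 5.33 for S100b. They had 11.54 against 12.38 for Gja1 and 7.16 against 7.75 for Aqp4. Glul (10.05 against 9.92) and Slc1a2 (6.10 against 6.15) differed little. The pattern is therefore not one of all astrocyte genes together: 4 genes lay higher and both channel genes lower on the same arrays. The 3′ minus 5′ signal of control transcripts averaged 1.87 log2 units on these arrays (1.07 to 2.26) and 2.60 on the others (2.12 to 4.57). The highest value was 1 LMACT array after methamphetamine. The part of this signal in the member values was not tested.

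**Figure D4:**
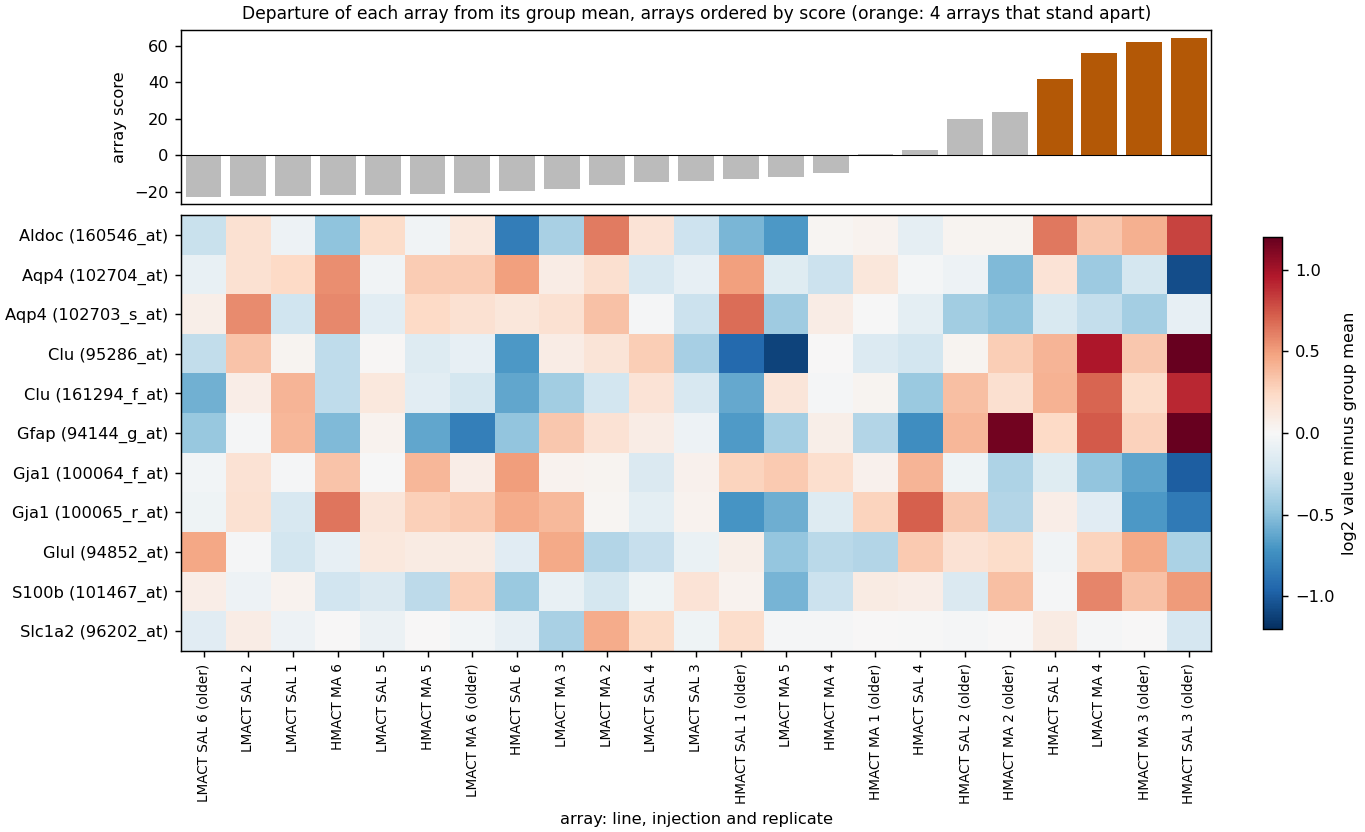
Deviation of the 11 probe sets above the floor on every array (rows) from their group means, in log2 units (colour), for the 23 arrays (columns) ordered by their score on the axis between arrays, which the bars above show. On the 4 arrays at the high end (orange bars) Aldoc, Clu and Gfap lie above their group means, S100b does so on 3 of the 4, and Gja1 (100064_f_at) lies below on all 4.

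Among the 19 other arrays, deviations from the group means were compared for the 28 pairs of the 8 genes by permutation (100000 resamples, two-sided, adjusted over the 28 pairs). Scores of these arrays still ran from -22.64 to 23.52, so the axis was not removed from these correlations. The pools were permuted as independent, which was not established. Positive correlations were found in 13 pairs, so the members did not vary as a single block. Aldoc and Clu varied together, with Pearson's r of 0.77 (permutation p = 0.00015, adjusted 0.0042) and Spearman's rho of 0.72 (permutation p = 0.00098, adjusted 0.027), and with r of 0.67 without the 2 arrays farthest from the median of Aldoc. Gfap and Gja1 varied in opposite directions, with r of -0.75 (permutation p = 0.00031, adjusted 0.0043). Their rho was -0.58 (permutation p = 0.011, adjusted 0.067), and r was -0.41 without the 2 farthest arrays, so that relation rests partly on those. No other pair passed the adjusted threshold. Gja1 and S100b had r of -0.58 (permutation p = 0.0088, adjusted 0.056), and Gja1 and Aqp4 had r of 0.59 (permutation p = 0.0075, adjusted 0.056).

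Over all 23 arrays the paired probe sets of a gene followed each other with r of 0.75 for Clu, 0.71 for Gja1 and 0.63 for Aqp4. The genes outside the members whose deviations were most like each member's were taken among 5300 genes. For Aldoc this was Gaa (acid alpha-glucosidase), with r of 0.95 over 23 arrays and 0.94 over the 19. For Gja1 it was Crem (0.96 and 0.83), followed by Ndfip2 (0.96 and 0.92) and Pptc7 (0.96 and 0.83). For Clu it was Slc25a44 (0.95 and 0.88), for S100b Ap1s1 (0.90 and 0.84) and for Aqp4 Celf2 (0.84 and 0.78). Gfap was most like Nbl1 (0.83 and 0.79), whose mean level of 2.57 lay near the floor, which limits that value. Glul was most like Gga2 (0.80 and 0.76). Slc1a2 was most like Adam28 (0.81 and 0.81), a value limited by the near-constancy of Slc1a2 on 14 of 23 arrays. None of these 10 genes is in the astrocyte lists used here. The arrays share their axis of difference, so these values are descriptions and carry no test.

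The members were set beside lists of other genes, 1 probe set per gene. Of 40 other astrocyte genes 27 were on the array and 24 above the floor on most arrays. In the mean line comparison 17 of these 24 had higher and 7 lower means in HMACT, with a median difference of 0.05 against 0.00 over all genes above the floor and -0.02 over the 8 members, and 0 passed the threshold. The smallest p-values belonged to Hes5, a Notch target (0.68, SE 0.191, limma adjusted p = 0.212), and the metallothionein Mt1 (0.68, SE 0.277, limma adjusted p = 0.404). For methamphetamine minus saline over both lines, 12 of the 24 had higher and 12 lower means, with 0 past the threshold. Hes5 had the smallest p in that comparison, at -0.86 (SE 0.191, limma adjusted p = 0.324). With age in HMACT 15 were higher and 9 lower, with a median of 0.07 against 0.17 over the members and 0.01 over all genes, and 0 passed. The largest difference there was -1.57 (SE 0.653) for Dio2, the deiodinase that makes active thyroid hormone in astrocytes.

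Of 24 reactive astrocyte genes 19 were on the array and 8 above the floor. Lcn2, Cxcl10, Cd44, Gbp2 and Serping1, all used as signs of reactivity, lay at the floor on every array. In HMACT Serpina3n, a protease inhibitor induced in reactive astrocytes, was 0.96 higher in older pools (SE 0.313, limma adjusted p = 0.496), in the same comparison in which Gfap differed by 0.69. The summed level of the reactive list ran from 9.53 to 10.76 in the older and from 9.39 to 9.93 in the younger HMACT pools, and from 9.93 to 10.76 on the arrays that stood apart. In that comparison 5 of the 8 genes were higher and 3 lower, with a median of 0.01, and 0 passed. Of 13 genes of the glutamate and glutamine cycle, which include Glul and Slc1a2, 6 were above the floor. In the line comparison 2 of these were higher and 4 lower, with a median of -0.02; the glutamine carrier Slc38a2 had -0.67 (SE 0.169, limma adjusted p = 0.159), and 0 passed.

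Markers of other cells are given beside these differences. Of 8 oligodendrocyte markers above the floor 7 had lower and 1 higher means in HMACT, with a median of -0.29, and their summed level ran from 12.23 to 13.26 in HMACT and from 13.00 to 13.68 in LMACT. Mobp, a myelin protein gene, differed by -0.80 (SE 0.194, limma adjusted p = 0.134). With age in HMACT 5 of these 8 were higher, with a median of 0.34, led by Sox10 (1.26, SE 0.349) and Mag (1.34, SE 0.438). Of 7 microglial markers above the floor 5 were higher in HMACT and 5 were higher in older HMACT pools, with medians of 0.32 and 0.80. Their summed level ran from 10.27 through a median of 10.75 to 11.87 in HMACT after saline and from 10.78 through 10.96 to 11.15 in LMACT after saline. The 11.87 was on an array that stood apart. Its median was 10.69 in older and 10.77 in younger HMACT pools, so the summed level was not higher where most single markers were. Aif1, Cx3cr1 and Itgam lay at the floor on every array. Of 9 endothelial and pericyte markers 4 were higher in HMACT and 6 in older HMACT pools (Vwf 0.89, Cldn5 0.83), and of 11 neuron markers 5 were higher in each. No list had a gene past the threshold in the line or HMACT age comparison. The part of these cells in the differences of Gja1, S100b and Gfap was not tested.

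**Figure D5:**
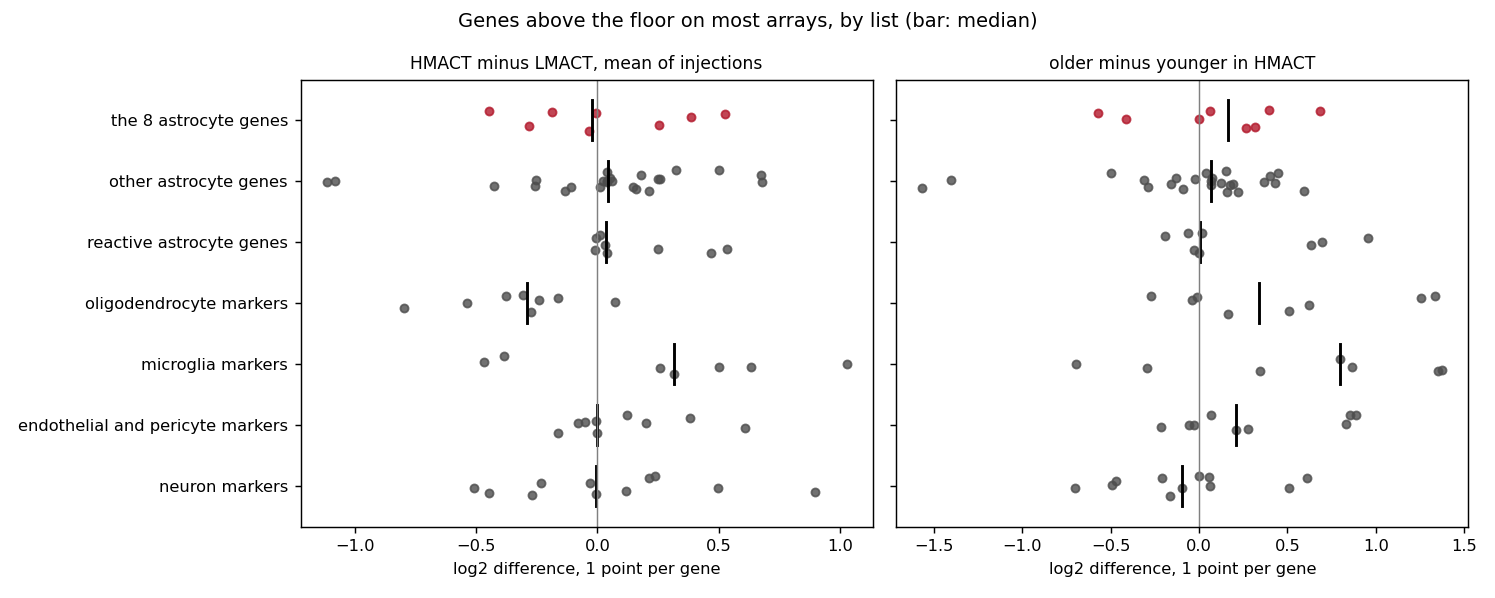
Log2 difference of each gene above the floor on most arrays (points, 1 per gene) with the median of the list (bar), for the 8 members and 6 other lists (vertical axis), in the mean line comparison and the HMACT age comparison. The members scatter on both sides of 0 in both panels, and the oligodendrocyte list has its median at -0.29 in the line panel and 0.34 in the age panel.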

How the data were processed

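Total RNA was extracted with Trizol and labelled as biotinylated cRNA, per the labels' protocols. The log2 values analysed were deposited by the authors as 1 table with a value per probe set and array. The log2 scale was inferred from the values, and near-equal quartiles on all arrays (upper quartiles from 6.35 to 6.51) show that the arrays had been put on a common scale. R 2.7.1 is listed in the submitters' processing notes; for the background correction, the probe set summary and the genome build the entry is: not given in the sources used here. Precision is limited by how many arrays there are.

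Of 12488 probe sets 66 controls were left out. The annotation lists 1 gene for 10833, several for 396 and none for 1193, and 10817 matched the RefSeq table of GRCm38.p6 by gene identifier. Groups, ages and chip lots came from the labels. For LMACT after methamphetamine replicate 4 the lot number, which no other array carries, was recoded to a near-identical one carried by other arrays. limma 3.58.1 in R 4.3.3 was fitted to all 12422 probe sets and 23 arrays with 4 group means; age comparisons added a term for pools over 100 days. Tests were two-sided with Benjamini-Hochberg adjustment over all probe sets and a threshold of 0.05, and the code was tested on simulated data. No pair of the 253 pairs of arrays held identical values. The members and the 10 lists were chosen with earlier results of these data known. Each of the 8 genes was given in every comparison by its probe set with the highest mean, and other probe sets where a result turns on them; from a list, the genes past the threshold were named, or else up to 2 with the smallest p, or those at the floor. Likeness named up to 3 genes by Pearson's r on deviations from the group means. Genes at the floor were chosen for mention after their values were seen.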

Additional observations from a re-analysis of the deposited data

Results flagged for a closer look

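In 44 sets of values (11 probe sets in 4 groups), 2 held a pool farther from its nearest neighbour than Dixon's limit allows; chance alone flags about 1 in 20 such sets. Aqp4 (102704_at) was lowest in HMACT after saline replicate 3, at 6.426, with the other 5 pools from 7.43 to 7.98. This is an array that stood apart, on which Gja1 was also at its lowest, 10.98. Slc1a2 was lowest in HMACT after methamphetamine replicate 4, at 6.107, with the other 5 pools from 6.119 to 6.125. The gap of the Slc1a2 value is small in size and stands out because the other pools nearly coincide.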

How the results depend on the processing

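In all but 1 of 380 refits of the 10 member counts, 0 of 13 probe sets passed the threshold. With array weights the mean line comparison gave 1, Gja1, while the count over all probe sets went from 17 to 1014. Of 4890 refits of the member differences, all uncalled in the base fits, 280 had the opposite sign and 135 moved by more than the standard error. Replicate numbers are shared between groups. Same-numbered pools of a line mostly had similar mean ages (150, 141.5 and 77.25 days in both pools of HMACT replicates 1, 2 and 4) and chip lots, but no label ties a number to a shared batch. Correlations of deviations were over 0.1 in 8 of 11 same-numbered pairs and ran from -0.62 to 0.88, so the independence of such pools was not established. The main fits treated all pools as independent. With the replicate block 0 members passed in any comparison, and the mean line count over all probe sets was 8 in place of 17. Over all probe sets the counts ran, leaving out each array in turn and then under the other settings, from 1 to 4 and 0 to 7 for methamphetamine over both lines, 1 to 2 and 0 to 3 in HMACT, 0 to 2 and 0 to 67 in LMACT, 7 to 55 and 0 to 1014 for line, 0 to 3 and 0 to 303 for line after saline, 0 to 5 and 0 to 192 for line after methamphetamine, 0 to 1 and 0 to 7 for age in HMACT, and 19 to 62 and 8 to 58 for age in LMACT. They stayed at 0 for the interaction and for age within groups. Leaving out each array in turn, the line difference ran from -0.51 (without LMACT after methamphetamine replicate 4) to -0.35 (without HMACT after saline replicate 3) for Gja1 and from 0.31 to 0.46 for S100b. The cause was not tested. Values at the floor have no order, which limits the second Gfap and Glul probe sets.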
